A study of Mus musculus with 6 samples.

Results

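The proteasome is the barrel-shaped protease that degrades ubiquitin-tagged proteins, and 37 genes for its subunits and early assembly factors were followed here on arrays of cultured mouse bone marrow cells. The family was chosen on measured values of these arrays, because 1 probe set of Psmd6, a subunit of the proteasome lid, had read low in cells without the cryptochromes Cry1 and Cry2. All 76 probe sets annotated to 1 of these genes alone were kept, out of 45037 on the array. Of the 76, 68 passed the filter on low signal, and each of the 37 genes kept at least 1. The other 8, which belong to 6 of the genes, read at most 38.3 on the arrays other than WT 2.

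There were 6 arrays, 3 of cells labelled Cry 1/2 double KO (DKO 1 to DKO 3) and 3 of wild-type cells (WT 1 to WT 3). Both genotypes are labelled as strain C57BL/6, both were grown from bone marrow with interleukin-7 and serum, and neither group received a treatment. The labels give no age. They also leave unsaid whether a genotype's arrays stand for different mice or culture dishes, and p-values here measure only how much these samples vary, part of which may be technical. With 3 arrays a genotype, precision is limited throughout. The comparison asks which genes differ between cells with and without cryptochromes, the repressors of the circadian clock.

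The Cry1 probe set read 359, 399 and 545 on the DKO arrays and 1533, 1502 and 955 on the WT arrays. The Cry2 probe set read 162, 178 and 133 on the DKO arrays and 145, 102 and 105 on the WT arrays, so it was not lower in the knockout. Where these probes lie relative to the deleted exons is not known here, and a probe outside them checks nothing, so the genotypes are taken from the labels. WT 2 stood apart from the other arrays. For Actb, 3' probes were 824 times as bright as 5' probes on WT 2, where the other arrays gave 1.47 to 2.05, highest on DKO 1. The same ratio for Gapdh was 132 on WT 2, 1.72 on DKO 1 and 0.84 to 0.90 on the other arrays. The median signal of WT 2, 115, compares with 44.0 to 55.3 elsewhere. Differences of the genes described are therefore given with all 6 arrays and without WT 2. The marker genes of early B cells were bright on the arrays, with the summed signal of 9 of them at 95464 and 99475 on DKO 1 and DKO 2, 132881 on WT 2, and 65503 to 72132 on the others. The brightest genes carry this sum. Without WT 2, 5 of the 9 read higher in DKO, up to 0.66 for Blnk. The other 4 read lower, namely Ebf1, Pax5, Rag1 at -1.05 and Rag2 at -1.08. Granulocyte markers, 8 genes, summed to 499 and 454 on DKO 1 and DKO 2, and to 26775 on DKO 3. They summed to 73926, 177710 and 18646 on the WT arrays. Markers of T and NK cells, 9 genes, summed to 959 and 1560 on DKO 1 and DKO 2, to 257 on DKO 3, and to 241, 941 and 209 on the WT arrays. Macrophage markers, 10 genes, summed to 17093, 10205 and 23706 on DKO 1, 2 and 3, and to 43984, 62294 and 14058 on WT 1, 2 and 3. Of these 10, 8 read lower in DKO with all 6 arrays, and all 10 without WT 2, with a median of -1.02 and 0 calls. Markers of erythroid cells and megakaryocytes, 8 genes, summed to 609 and 623 on DKO 1 and DKO 2 and to 2556 to 5470 on the others. The megakaryocyte genes Pf4 and Ppbp made most of that difference. Pf4 read 147 and 198 on DKO 1 and DKO 2 and 1619 to 4195 on the others. The tested erythroid genes Epor and Klf1 were not lowest on DKO 1 and DKO 2. No marker was listed at exactly 0. DKO 1 and DKO 2 thus had lower granulocyte sums than every other array, and DKO 3 lay within the WT range for granulocyte and for T and NK cell markers. In RNA from a mixed culture, fewer cells of a type and less RNA per cell cannot be told apart.

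The proteasome consists of a core particle and a regulatory particle that caps it. In the core, outer rings of alpha subunits gate the entrance and inner rings of beta subunits hold the proteolytic sites. The regulatory particle has a base, whose ATPases unfold the substrate, and a lid, which removes ubiquitin. Psmd6 is a lid scaffold subunit. Lymphocytes and cells exposed to interferon replace the catalytic subunits Psmb6, Psmb7 and Psmb5 by Psmb9, Psmb10 and Psmb8, which gives the immunoproteasome, whose products suit presentation on MHC class I.

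Promoter sequences of Psmd6, of Psmb5 and of the 3 immunoproteasome subunits are shown because the results turn on these genes. Each is the 250 bases before the annotated start, 5' to 3' on the gene's strand, from RefSeq on GRCm38.p6. Capitals mark matches on either strand to CCAAT (the NF-Y box), TGACNNNGC (the core of the antioxidant response element, also used by the proteasome regulator Nfe2l1), CACGTG (the E-box bound by CLOCK and BMAL1), TTCNNNGAA (the STAT site of interferon gamma responses) and the interferon-stimulated response element (GAAA, any pair of bases, GAAA). The Psmd6 sequence lies at chr14:14120946-14121195, minus strand, that of Psmb5 at chr14:54617996-54618245, minus strand, that of Psmb8 at chr17:34197945-34198194, plus strand, that of Psmb9 at chr17:34187331-34187580, minus strand and that of Psmb10 at chr8:105938393-105938642, minus strand.
Psmd6: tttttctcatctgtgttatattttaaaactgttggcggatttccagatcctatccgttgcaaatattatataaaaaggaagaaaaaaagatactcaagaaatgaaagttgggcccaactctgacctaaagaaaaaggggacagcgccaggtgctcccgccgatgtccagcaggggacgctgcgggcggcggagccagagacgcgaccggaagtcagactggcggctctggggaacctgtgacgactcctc
Psmb5: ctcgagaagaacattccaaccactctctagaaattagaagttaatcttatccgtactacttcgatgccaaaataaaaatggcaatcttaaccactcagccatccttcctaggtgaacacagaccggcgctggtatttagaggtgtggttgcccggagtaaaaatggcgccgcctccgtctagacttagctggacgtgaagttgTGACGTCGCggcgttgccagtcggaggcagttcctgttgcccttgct
Psmb8: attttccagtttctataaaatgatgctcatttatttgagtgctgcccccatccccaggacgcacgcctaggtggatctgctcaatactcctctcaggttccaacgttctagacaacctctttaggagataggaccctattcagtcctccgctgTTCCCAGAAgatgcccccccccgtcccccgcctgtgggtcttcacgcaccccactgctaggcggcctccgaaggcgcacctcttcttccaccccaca
Psmb9: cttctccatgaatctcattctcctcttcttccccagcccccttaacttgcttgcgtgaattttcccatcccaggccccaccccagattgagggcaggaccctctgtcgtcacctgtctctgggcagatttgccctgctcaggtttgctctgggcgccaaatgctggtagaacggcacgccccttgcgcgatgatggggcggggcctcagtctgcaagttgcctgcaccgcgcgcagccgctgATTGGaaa
Psmb10: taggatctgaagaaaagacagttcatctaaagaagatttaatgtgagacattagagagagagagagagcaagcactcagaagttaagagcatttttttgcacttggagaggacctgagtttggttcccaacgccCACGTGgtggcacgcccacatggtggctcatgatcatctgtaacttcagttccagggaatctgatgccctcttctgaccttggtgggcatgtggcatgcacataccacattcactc

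None of the 5 motifs occurs in the 250 bases before Psmd6. Psmb5 holds TGACNNNGC at bases -47 to -39 from its start, Psmb8 holds TTCNNNGAA at -97 to -89, Psmb9 holds CCAAT on the opposite strand at -8 to -4, and Psmb10 holds CACGTG at -116 to -111. Promoters of 31 members were in the table, each taken for this count with the 50 bases after the start as well. Of these, 12 held CCAAT (38.7%, against 41.1% of 27025 genes), 5 held TGACNNNGC (16.1% against 13.99%), 3 held CACGTG (9.68% against 8.09%), 2 held TTCNNNGAA (6.45% against 9.55%) and 3 held the interferon-stimulated response element (9.68% against 3.99%). No matches overlapped in the 5 sequences shown. A match describes the letters only, and it shows no binding.

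One Psmd6 probe set was far lower in the knockout cells, and the other was not. Probe set 1423696_a_at read 375, 320 and 284 on DKO 1, 2 and 3, against 4556, 20731 and 5131 on WT 1, 2 and 3. All knockout arrays lay below all wild type arrays, and they differed little among themselves, at 326 ± 46.0 (SD, n = 3). Against the mean of WT 1 and WT 3 the signal in WT was 14.8 times that in DKO. On the log2 scale, centred on each array's median, the DKO level was 2.35 ± 0.10 (SD, n = 3), the WT level was 6.57 ± 0.66 (SD, n = 3), and they differed by -4.22 ± 0.47 (SE). Without WT 2 the WT level was 6.20 ± 0.25 (SD, n = 2) and the difference was -3.85 ± 0.23 (SE). These values of probe set 1423696_a_at chose the family, so they are a description, and the calls counted below are no evidence about them.

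The other Psmd6 probe set, 1423697_at, read 6431, 6364 and 7821 on DKO 1, 2 and 3, against 7125, 2062 and 7595 on WT 1, 2 and 3. Except for WT 2, where it was low, the genotypes overlapped on this probe set. Its log2 difference was 0.82 ± 0.77 (SE) with all 6 arrays, and -0.12 ± 0.22 (SE) without WT 2 (limma adjusted p = 0.958). The array's annotation lists both probe sets under the same cDNA record. Where each lies in the Psmd6 transcript was not analysed here.

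**Figure D1:**
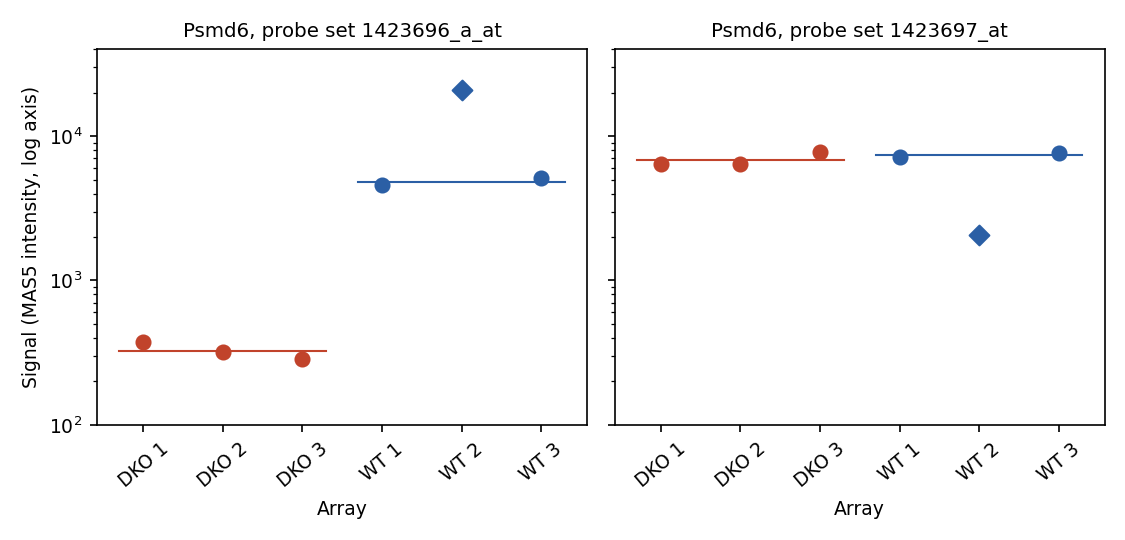
Signal of the Psmd6 probe sets on each array, on a log axis, with DKO arrays in red, WT arrays in blue and WT 2 as a diamond, and with lines at the geometric means of DKO 1 to 3 and of WT 1 and WT 3. On 1423696_a_at the DKO arrays sit between 284 and 375 and the WT arrays at 4556 and above, and on 1423697_at the genotypes overlap.

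No other proteasome probe set came near the low Psmd6 value. Without WT 2, the other 67 tested probe sets had log2 differences from -0.91 to 0.66, and the next lowest after -3.85 was Psmd7 at -0.91. Of the 68, 49 lay within 0.25 of 0, and the median was -0.06, where 14672 of all 27022 tested probe sets lay within 0.25 and their median was -0.02. With all 6 arrays limma called 0 members at an adjusted p of 0.05, and it called 0.0074% of all tested probe sets. Without WT 2 it called 1 member, the low Psmd6 probe set, where 0.0259% of tested probe sets were called, 0.0074% as lower and 0.0185% as higher. The comparison is the one that chose the family, so nothing is read from this count. Without WT 2 and 1 more array the difference of the low Psmd6 probe set was -4.03 to -3.68. At an unadjusted limma p under 0.05 there was 1 of the 68, again that of Psmd6, with all 6 arrays, where 1.31% of all tested probe sets were lower and 1.81% higher at that p. Without WT 2 there were 3, all lower, the other 2 being a Psmd11 and a Psma1 probe set, where 2.08% were lower and 2.28% higher. Among all tested probe sets, 5 had a lower difference than Psmd6 without WT 2.

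**Figure D2:**
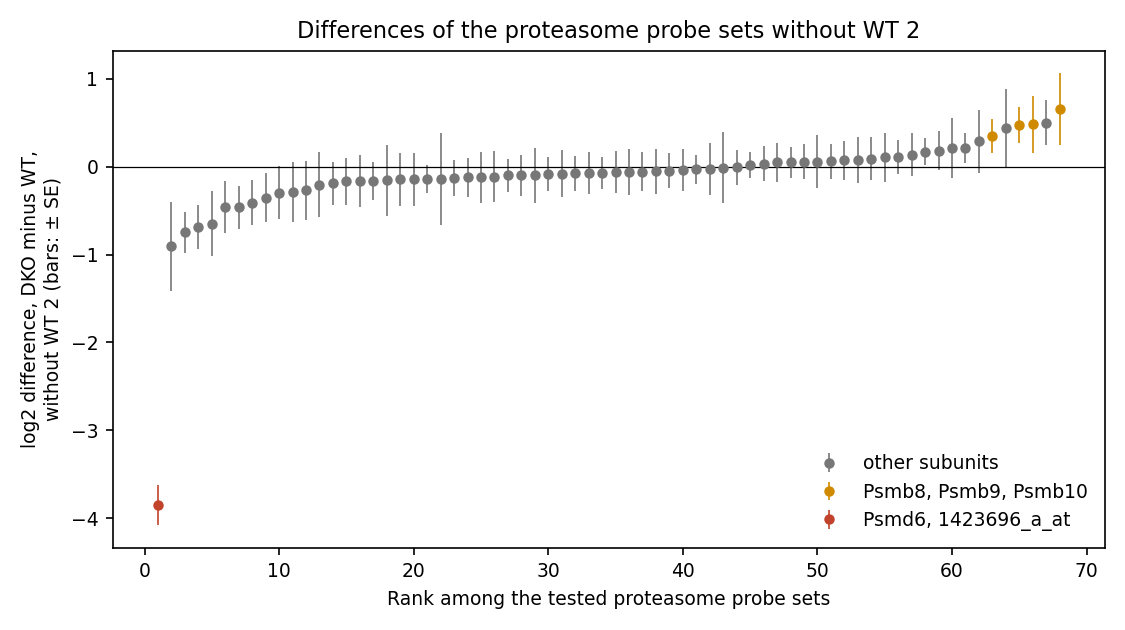
Log2 differences, DKO minus WT without WT 2, of the 68 tested proteasome probe sets in rank order, with bars of 1 standard error and the immunoproteasome catalytic subunits in orange. The low Psmd6 probe set, in red, lies at -3.85, and the others lie between -0.91 and 0.66.

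Probe sets of the same gene gave close values in most of the family. Of the 37 genes, 18 had at least 2 tested probe sets. Without WT 2 the gap between a gene's highest and lowest log2 difference had a median of 0.15, the gap of Psmd6 was 3.73 and the next largest was that of Psma1, at 1.13. Over all 5798 genes with at least 2 tested probe sets the median gap was 0.34, and 3 genes had a larger gap than Psmd6, namely Ighm, Adi1 and Zfp991. Psma1, Psma6, Psmb1, Psmb3 and Psmd13 had probe sets on both sides of 0 without WT 2, with differences from -0.69 to 0.44 over these genes.

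With WT 2 included, the same probe sets spread apart. WT 2 minus the mean of WT 1 and WT 3 was compared between probe sets of a gene, and the gap had a median of 3.01 over the 18 genes. The largest was that of Psmb3, a structural beta subunit, whose probe sets read 727 and 57397 on WT 2 and 6500 to 8745 on WT 1 and WT 3. Of the 68 tested probe sets, 52 read lower on WT 2 than on both other WT arrays and 15 read higher. The low Psmd6 probe set was among those that read higher on WT 2, and the other Psmd6 probe set among those that read lower. With all 6 arrays 12 of the 18 genes had probe sets of opposite sign, where 5 did without WT 2.

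**Figure D3:**
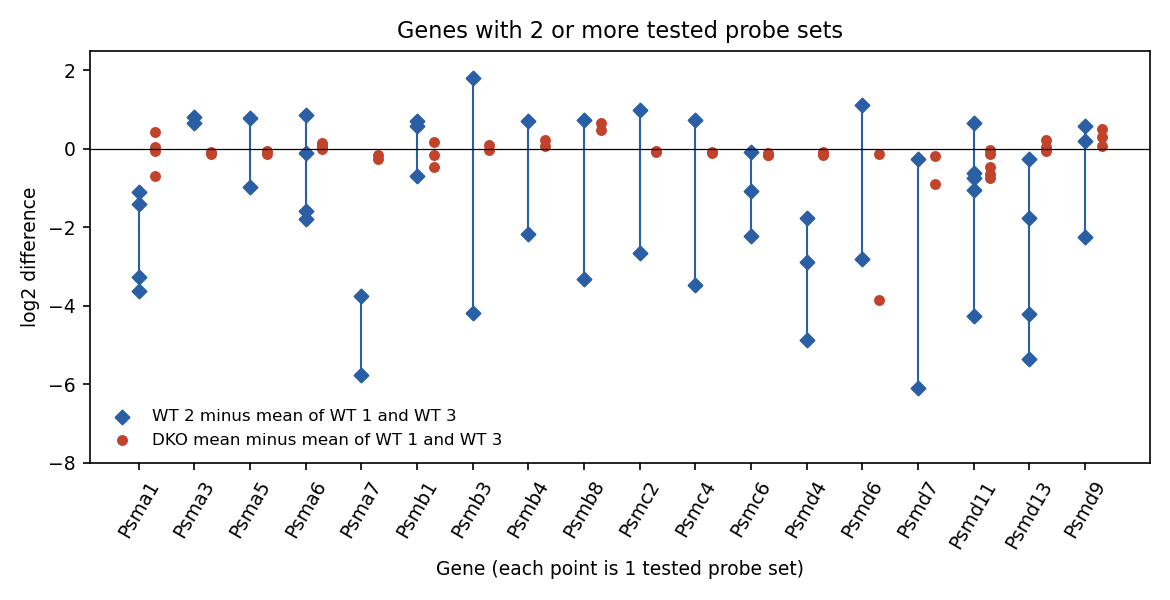
Log2 differences for the 18 genes with at least 2 tested probe sets, with WT 2 against the mean of WT 1 and WT 3 as blue diamonds joined by a line and DKO against the mean of WT 1 and WT 3 as red points. The diamonds of most genes lie apart, by up to 5.98 for Psmb3. The red points of a gene have a median gap of 0.15, and lie farthest apart for Psmd6, by 3.73, and then for Psma1, by 1.13.

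Taking for each gene the probe set with the highest mean signal, which for Psmd6 is 1423697_at, the direction of the family turned with WT 2. With all 6 arrays 29 of 37 genes read higher in DKO and 8 lower, and their median log2 difference was 0.68, against 0.30 over 12627 genes. Of those 12627, 8862 read higher. Without WT 2, 13 of the 37 read higher and 24 lower, with a median of -0.07, where 6523 of all 12627 genes read higher and their median was 0.01. The median under quantile normalization of all 6 arrays was 0.35, and it was 0.68 with median centring. Without WT 2, 29 of the 37 genes lay within 0.25 of 0, and so did 7147 of the 12627. After centring, the groups did not overlap in 3 of the 37 with all 6 arrays, all higher in DKO, where 8.53% of the 12627 genes were higher and 2.06% lower in this way. Without WT 2 there were 3 higher and 0 lower, where 12% and 5.56% of the genes were.

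Signals of these 37 probe sets were high and even on the 5 arrays other than WT 2, from 492 to 15467. The ratio of a gene's highest to its lowest array had a median of 1.28 and was under 1.5 for 26 genes. It was smallest for Psma2, an alpha ring subunit, at 1.08, and largest for Psmd7 at 3.44 and Psmb9 at 2.38.

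Alpha ring subunits, which form the gate of the core, differed little between genotypes without WT 2. Psma1 read 8053, 7596 and 9888 on DKO 1, 2 and 3, against 8074, 1395 and 9394 on WT 1, 2 and 3, a log2 difference of 1.15 with all 6 arrays and -0.06 without WT 2. Psma5 on its brighter probe set read 7992, 7746 and 8043 in DKO and 8861, 29532 and 8373 in WT, a difference of -0.40, and of -0.14 without WT 2. The sign for Psma1 turned when WT 2 was left out. A dimmer Psma1 probe set, 1458292_at, read 146, 126 and 129 in DKO and 225, 205 and 219 in WT, at -0.32 with all 6 arrays and -0.69 ± 0.25 (SE) without WT 2. Its groups were separate as signal, which was not counted over all probe sets. Psma6, another alpha subunit, read 14099, 14608 and 15366 in DKO and 12566, 50630 and 15467 in WT, a difference of -0.23, and of 0.06 without WT 2. The 7 alpha genes ranged from -0.40 to 1.15 with all 6 arrays and from -0.29 to 0.06 without WT 2.

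The structural subunits of the beta rings gave values of the same kind. Psmb4 read 12620, 11846 and 13603 on DKO 1, 2 and 3, against 11087, 5247 and 12969 on WT 1, 2 and 3, a difference of 0.79, and of 0.06 without WT 2. Psmb3 on its brightest probe set read 9011, 7607 and 8221 in DKO and 8745, 57397 and 7924 in WT, a difference of -0.63, and of -0.03 without WT 2. Psmb1 read 9673, 9409 and 8512 in DKO and 7858, 9952 and 8281 in WT. It was the single one of the 4 whose groups did not overlap after centring, and its log2 difference was 0.40 with all 6 arrays and 0.17 ± 0.15 (SE) without WT 2.

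ATPases of the base, the ring that unfolds and threads substrates, read slightly lower in DKO without WT 2 in all 6 genes, from -0.16 to -0.03, each within its standard error, and ranged from -0.41 to 1.37 with all 6 arrays. Psmc5 read 3228, 3995 and 4312 on DKO 1, 2 and 3, against 3763, 396 and 3960 on WT 1, 2 and 3. Its log2 difference was 1.37 with all 6 arrays and -0.03 without WT 2. Psmc2 differed by -0.41 and -0.08. The non-ATPase subunits of the base, Psmd1 and Psmd2, which are large scaffolds, and the ubiquitin receptor Psmd4, differed by -0.35, -0.11 and -0.07 without WT 2 and by 0.61, 0.89 and 0.51 with it.

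Lid subunits, the class to which Psmd6 belongs, had 7 of 8 genes lower and 1 higher in DKO without WT 2, with a median of -0.12, and 7 higher and 1 lower with all 6 arrays, with a median of 0.82. Of all 12627 genes, 6104 read lower without WT 2 and 8862 read higher with all 6 arrays. By brightest probe set, none of the 8 lid genes was called with all 6 arrays or without WT 2. Of all 12627 genes, 1 was called with all 6 arrays and 2 without WT 2, all higher in DKO. The low Psmd6 probe set, which was called without WT 2, is not the brightest of its gene and is outside this count. Psmd13 read 3160, 3333 and 4222 on DKO 1, 2 and 3, against 3426, 161 and 3883 on WT 1, 2 and 3, a difference of 1.73 with all 6 arrays and -0.06 without WT 2. Psmd14, the deubiquitinase of the lid, differed by 0.02 and -0.08.

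Psmd7, the partner of Psmd14, was singled out after its values were seen. Psmd7 read 862, 1649 and 2765 on DKO 1, 2 and 3, against 2963, 70.4 and 2913 on WT 1, 2 and 3. DKO 3 read near WT 1 and WT 3, while DKO 1 and DKO 2 read lower and WT 2 lowest. The log2 difference was -0.91 ± 0.51 (SE) without WT 2 (limma adjusted p = 0.948) and 1.12 with it. The other tested Psmd7 probe set differed by -0.19 without WT 2 and -0.10 with it.

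Psmd11, a lid scaffold, had 5 tested probe sets, and all 5 had lower centred log2 means in DKO without WT 2, the smallest difference being -0.03 ± 0.29 (SE) for a dim probe set whose mean signal was slightly higher in DKO. Probe set 1456059_at read 1068, 802 and 879 on DKO 1, 2 and 3, against 1538, 1795 and 1503 on WT 1, 2 and 3, and its groups did not overlap as signal, nor after centring once WT 2 was left out. After centring and without WT 2, DKO lay wholly below WT in 4 of the 68 tested member probe sets. The same held for 2200 of all 27022 tested probe sets. Separation as signal was not counted over all probe sets. For 1456059_at the differences were as follows. It differed by -0.75 ± 0.23 (SE) without WT 2 (limma adjusted p = 0.948) and by -0.50 with all 6 arrays. Probe set 1437080_s_at read 3128, 3168 and 4167 in DKO and 5098, 4526 and 4336 in WT, which also did not overlap as signal, and differed by -0.11 with all 6 arrays and -0.46 without WT 2. The brightest Psmd11 probe set, 1440253_at, read 4455, 3969 and 4825 in DKO and 4804, 14935 and 4685 in WT, a difference of -0.35, and of -0.13 without WT 2. None of these passed the test.

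Among the factors that assemble the base, Psmd10, also called gankyrin, read 492, 727 and 929 on DKO 1, 2 and 3, against 714, 173 and 874 on WT 1, 2 and 3, and Psmd5 read 1861, 1606 and 1971 in DKO and 1560, 1485 and 1791 in WT. With all 6 arrays these differed by 0.82 and 0.48, and Psmd9 by 0.82. Without WT 2 the differences were -0.20, 0.09 and 0.07.

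Apart from the immunoproteasome subunits, the family moved together from array to array within a genotype. Each gene was set against its mean over the 5 arrays other than WT 2. The median of the 34 genes was -0.18 on DKO 1, -0.17 on DKO 2, 0.30 on DKO 3, -0.11 on WT 1 and 0.20 on WT 3, and -2.04 on WT 2. DKO 3 and WT 3 exceeded DKO 1, DKO 2 and WT 1 in 31 of the 34 genes (91.2%), a pattern that 36.5% of all 12627 genes shared. The medians over all genes were also highest on DKO 3 and WT 3, at 0.13 and 0.08. Other large complexes had the pattern too, so it was not particular to the proteasome. On the same 2 arrays the medians were 0.40 and 0.17 for 9 subunits of the COP9 signalosome and 0.30 and 0.17 for 8 of the CCT chaperonin. They were 0.11 and 0.15 for 11 subunits of eIF3. With values as deposited the order of these 2 arrays over the others held in 20 of 34 (58.8%, against 19.1% of all genes), with medians of 0.15 and 0.10, and under quantile normalization in 15 of 34 (44.1% against 21.9%). DKO 3 and WT 3 also had the lowest median signals, 44.0 and 46.1, and their part in the pattern was not tested.

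**Figure D4:**
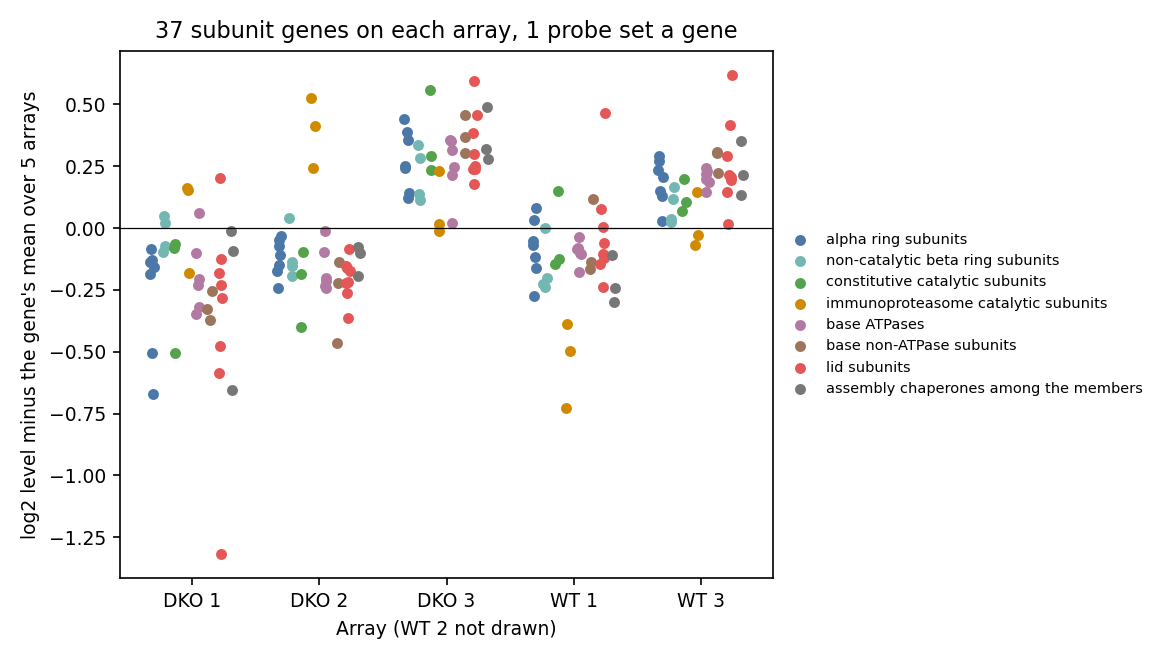
Centred log2 level of each of the 37 genes minus its mean over 5 arrays, by array and coloured by class of subunit, without WT 2. Most genes lie above 0 on DKO 3 and WT 3 and below 0 on the other arrays, and the immunoproteasome subunits in orange are highest on DKO 2 and lowest on WT 1.

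The catalytic subunits of the immunoproteasome had higher means in the knockout cells, and none passed the test. By brightest probe set, Psmb8 and Psmb10 were highest on DKO 1 and DKO 2, and Psmb9 on DKO 2 and DKO 3. Psmb8 read 10169, 11856 and 7587 on DKO 1, 2 and 3, against 6333, 1360 and 7547 on WT 1, 2 and 3. The groups did not overlap, and DKO 3 stood just above WT 3. Its log2 difference was 1.58 ± 0.88 (SE) (limma adjusted p = 0.822), and 0.47 ± 0.20 (SE) without WT 2 (limma adjusted p = 0.948). The dimmer Psmb8 probe set differed by 0.41, and by 0.66 without WT 2.

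Psmb9 read 3922, 6288 and 4395 on DKO 1, 2 and 3, against 2641, 965 and 4290 on WT 1, 2 and 3, where DKO 1 lay below WT 3. Its difference was 1.41, and 0.48 ± 0.32 (SE) without WT 2. Psmb10 read 4235, 4411 and 3236 in DKO and 2853, 1915 and 3241 in WT. DKO 3 and WT 3 were nearly equal in signal, and the groups were separate only after centring. Its difference was 0.90, and 0.35 ± 0.20 (SE) without WT 2.

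Their constitutive counterparts also had higher means in DKO with all 6 arrays, and differed little or read lower without WT 2. Psmb5 read 7384, 7157 and 7730 on DKO 1, 2 and 3, against 7046, 4106 and 7122 on WT 1, 2 and 3, a difference of 0.64 with all 6 arrays and 0.05 without WT 2. Psmb6 read 6841, 6154 and 7376 in DKO and 6377, 9408 and 6693 in WT, a difference of 0.19, and of 0.03 without WT 2. Psmb7 read 1326, 1400 and 2345 in DKO and 2065, 168 and 1890 in WT, a difference of 1.18, above that of Psmb10, and of -0.29 ± 0.35 (SE) without WT 2. Psmb10 minus Psmb7 within arrays differed between genotypes by -0.28 with all 6 arrays and by 0.64 without WT 2. The genotypes overlapped for Psmb6 and Psmb7. For Psmb5 the DKO arrays lay just above the WT arrays as signal, and the genotypes overlapped after centring.

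The mean log2 level of Psmb8, Psmb9 and Psmb10 minus that of Psmb5, Psmb6 and Psmb7, a quantity within each array, came to 0.44, 0.80 and -0.10 in the knockout (DKO 1, 2, 3) and to -0.32, -0.49 and 0.07 in the wild type (WT 1, 2, 3). DKO 1 and DKO 2 lay above all WT arrays, and DKO 3 lay between WT 1 and WT 3. The means were 0.38 ± 0.46 (SD, n = 3) and -0.24 ± 0.29 (SD, n = 3), and without WT 2 the WT mean was -0.12 ± 0.28 (SD, n = 2). The difference of 0.62, or 0.50 without WT 2, was not clear of the spread between arrays of a genotype. It was 0.41 without DKO 2, and leaving out WT 2 as well as DKO 2 gave 0.29, or as well as WT 1 gave 0.31.

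**Figure D5:**
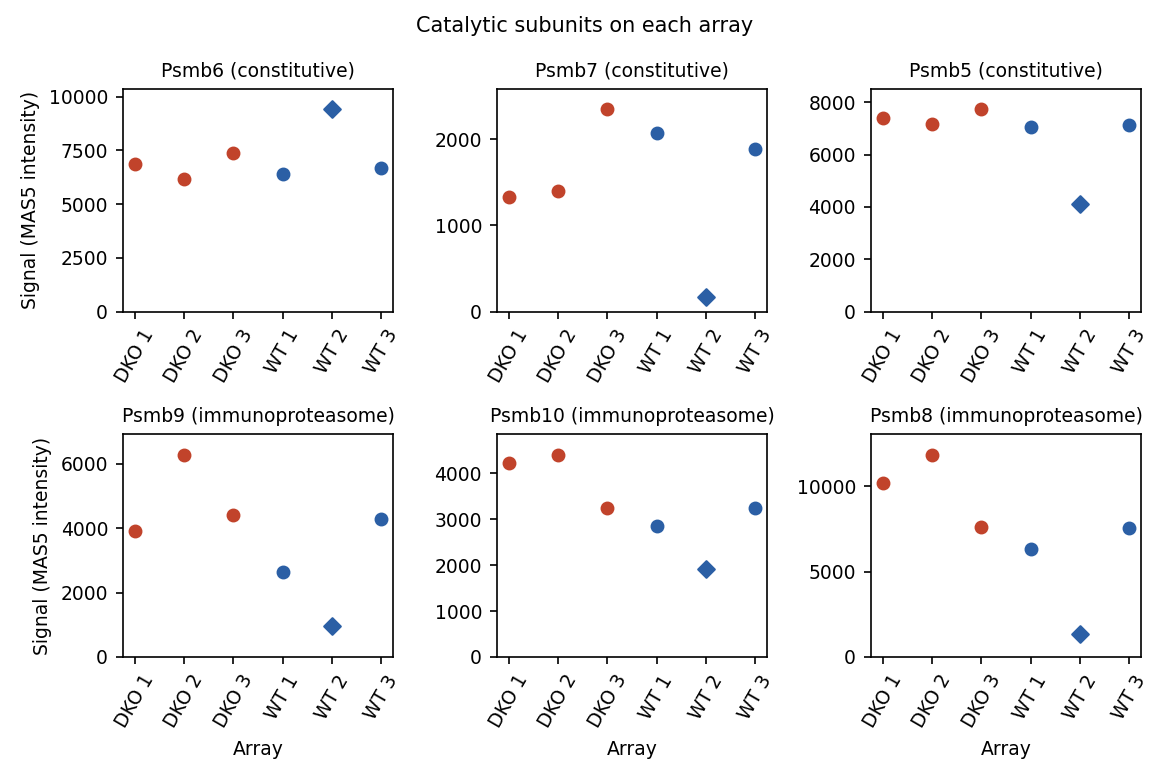
Signal of the 6 catalytic subunits on each array, constitutive subunits above and their immunoproteasome counterparts below, on linear axes from 0, with DKO arrays in red, WT in blue and WT 2 as a diamond. Psmb8, Psmb9 and Psmb10 are highest on DKO 2, and Psmb5 and Psmb6 are level over the arrays other than WT 2.

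Other genes of class I antigen processing were more often higher than lower in DKO. Of 12 genes tested, 12 read higher with all 6 arrays and 8 without WT 2, with medians of 0.96 and 0.22 and 0 calls. Of all 12627 genes, 8862 read higher with all 6 arrays and 6523 without WT 2, with medians of 0.30 and 0.01. Tap2, a subunit of the peptide transporter, read 1393, 2211 and 1014 on DKO 1, 2 and 3, against 1037, 119 and 1044 on WT 1, 2 and 3, the highest difference of the list with all 6 arrays, 1.79, and 0.47 without WT 2. B2m, the light chain of class I molecules, had the lowest with all 6 arrays, at 0.21, and read 0.27 without WT 2. Without WT 2 the highest was Nlrc5, a regulator of class I genes, at 0.80, and the lowest Pdia3, a chaperone of peptide loading, at -0.68. Of 17 interferon-stimulated genes tested, 11 read higher with all 6 arrays (median 0.33), 11 read higher without WT 2 (median 0.18), and 0 were called. Zbp1 had the highest difference with all 6 arrays, at 1.48, and Rsad2 the lowest, at -0.96, and they read 1.29 and -0.89 without WT 2. Irf1, the interferon response factor that acts on immunoproteasome genes, was singled out after its values were seen. Irf1 read 4129, 5864 and 1337 on DKO 1, 2 and 3, against 1490, 1338 and 1638 on WT 1, 2 and 3, high on DKO 1 and DKO 2, with DKO 3 in the range of the WT arrays or just under it. Its difference was 1.41, and 1.00 without WT 2. DKO 1 and DKO 2 also had the lowest granulocyte marker sums. Their joint sums of erythroid and megakaryocyte markers were lowest too, mostly through Pf4 and Ppbp. Their B lineage sums were above all arrays but WT 2, though 4 of the 9 genes read lower in DKO without WT 2. Their T and NK cell marker sums were the highest, though that of WT 2, at 941, was close to the 959 of DKO 1. Their macrophage marker sums were 17093 and 10205, with that of WT 3 between them at 14058. The part of these cells in the result was not tested.

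Other genes around the proteasome gave 0 calls. Of 15 tested, 12 read higher with all 6 arrays (median 0.46) and 5 without WT 2 (median -0.09), where 8862 and 6523 of all 12627 genes did. Psme1, a subunit of the interferon-inducible activator, read 8081, 9321 and 7295 on DKO 1, 2 and 3, against 6489, 3745 and 6852 on WT 1, 2 and 3. Its difference was 0.88, and 0.28 without WT 2. All its knockout arrays lay above all wild type arrays, which after centring held for 1 of the 15. Of all 12627 genes, 8.53% lay higher in this way with all 6 arrays and 12% without WT 2. Ecpas, a proteasome adaptor, had the highest difference with all 6 arrays, 1.48, and -0.05 without WT 2, and Usp14, a proteasome deubiquitinase, the lowest, -0.29, and -0.30 without WT 2. Nfe2l1 and Nfe2l2, transcription factors that act on proteasome genes, differed by 0.29 and 0.60 with all 6 arrays and by -0.35 and -0.25 without WT 2. Complexes that share architecture or abundance with the proteasome read likewise without WT 2. The median was -0.01 for 9 subunits of the COP9 signalosome, which resembles the lid, -0.01 for 11 of eIF3, and -0.06 for 8 of the CCT chaperonin. With all 6 arrays the medians were 0.63, 0.15 and 0.30, and 0 were called. Of the ubiquitin and activating enzyme list only Uba6 was measured by a probe set of its own, at -0.45, and -0.82 without WT 2.

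Psmd6 lies on chromosome 14, as do Psmb5 and Psmc6, whose differences were 0.64 and -0.13 with all 6 arrays and 0.05 and -0.16 without WT 2. Of the 20 protein-coding genes nearest to Psmd6, 10 on each side, 7 had tested probe sets, 11 in all, and 0 were called with or without WT 2. With all 6 arrays these ranged from -1.04 to 1.33 with a median of 0.43, and without WT 2 from -1.04 to 0.99 with a median of 0.01. The lowest was a probe set of Atxn7, the gene next to Psmd6, while the other Atxn7 probe set read 0.43 with all 6 arrays and 0.01 without WT 2. Thoc7, the gene after it, read -0.16 with all 6 arrays and 0.12 without WT 2.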

How the data were processed

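Total RNA of cultured mouse bone marrow cells was biotin-labelled for 6 arrays, per the labels. The authors' deposited table holds 1 linear intensity for each probe set, computed with MAS5 per the submitters' processing notes, whose version is not given in the sources used here. Detection calls were not used here. Trimming 2% from each end left a mean of 500 on every array. Groups came from the sample titles.

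Probe sets were named through the platform annotation, 34945 with 1 symbol, and genes through RefSeq's table for GRCm38.p6. Values were taken as log2(intensity + 16), which understates differences of dim probe sets, and centred on each array's median. The 27022 non-control probe sets above percentile 40 of mean signal entered limma 3.58.1 (R 4.3.3), with genotype as the single term and a variance trend, and p was adjusted by Benjamini-Hochberg over all of them. Leaving out WT 2 kept this filter. The fit was tested on simulated data whose spread came from the arrays other than WT 2, so that test does not cover an array like WT 2. Tables and plots used Python 3.11.15, pandas 2.3.3 and matplotlib 3.10.9.

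The members, lists and tests were chosen with earlier results of these data known. Genes were named as the highest and lowest of each class, catalytic subunits, called probe sets and genes with probe sets of opposite sign, and other genes were named after their values were seen. Listed genes without a probe set of their own are not analysed here. Suffixes in probe set names follow the manufacturer, where _s and _x mark probes that may bind other transcripts, so such values are uncertain. The brightest probe sets of Psma6 and Psmc2, which stand for these genes here, are of the _x kind.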

Additional observations from a re-analysis of the deposited data

How the results depend on the processing

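The low Psmd6 probe set kept its direction in all settings tried, from -4.53 with no centring to -3.82 with array weights with all 6 arrays. It ranged from -4.49 to -3.85 with 1 array left out, and from -4.03 to -3.68 without WT 2 and 1 more array. The number of proteasome probe sets past the threshold was 0 with all 6 arrays, except for 1 with array weights, where 3.41% of all tested probe sets passed, and 0 to 2 with arrays left out. It was 1 without WT 2, also with quantile normalization and, a setting added after seeing the data, with no centring. It was 2 without WT 2 and DKO 3, where Psmd7 (-1.38, limma adjusted p = 0.045) joined Psmd6 and 4.07% of all tested probe sets passed, and 0 without WT 2 and any of DKO 2, WT 1 or WT 3, where 0 of all 27022 passed. The median over the 37 genes was 0.35 to 0.74 with all 6 arrays under the other scalings, pseudocounts, filters and rules for a gene's probe set, -0.11 with array weights, -0.07 without WT 2 (-0.05 with quantile normalization or no centring), and -0.22 to 0.07 without WT 2 and 1 more array. Leaving out 1 array other than WT 2 gave 0.53 to 1.20. For the level of immunoproteasome minus constitutive catalytic subunits, the DKO minus WT difference stayed positive. This difference was 0.41 to 0.87 with 1 array left out and 0.29 to 0.74 without WT 2 and 1 more. It was not computed with array weights. With the replicate number as a block the low Psmd6 probe set gave -4.22, the median 0.68, and 0 probe sets were called. Same-numbered arrays correlated at -0.15, -0.0019 and 0.33 in their deviations from group means, and other pairs at -0.39 to 0.32. With 3 arrays a genotype, and WT 2 in the WT means, these values cannot decide whether the numbers pair arrays. Without detection calls, the signals of dim probe sets have no stated background.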
